A study of Arabidopsis thaliana with 9 samples.

Results

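The triple mutant ntrc-2cpab was compared with the double mutant 2cpab, a pair of Arabidopsis thaliana genotypes that differ by the added loss of NTRC on a background that already lacks the 2-Cys peroxiredoxins. The comparison took in every locus whose abundance averaged at least 1 in the 6 samples of these 2 genotypes, which was 16310 of 33602 loci in the deposited table. Of these, 16051 were nuclear, 133 plastid-encoded and 126 mitochondria-encoded, and 15550 were annotated as protein coding. At the limit, AT2G12460 was just inside with a mean of 1.00022 and AT2G35540 just outside with 0.999632.

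Poly(A) RNA was sequenced from the young rosette leaves of Col-0 plants that were 8 weeks old, grown under short days and harvested 2 h into the light period at 125 µE m-2 s-1. The ntrc-2cpab plants carried mutations in NTRC, 2CPA and 2CPB, the 2cpab plants in 2CPA and 2CPB, and the wild type in none of them; each genotype had 3 samples, and each sample pooled leaves of 3 plants. The labels give neither the alleles nor independent lines, so a difference at another locus of the mutant lines cannot be told apart from the added loss of NTRC. Both mutants share the loss of the peroxiredoxins, and the wild-type values below place their levels. The wild-type samples also enter the estimate of the spread behind each p-value. Sequencing depth is unknown, and p-values set the difference between the means against the spread between these pooled samples.

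2-Cys peroxiredoxins are abundant chloroplast enzymes that reduce hydrogen peroxide through a pair of redox-active cysteines. NTRC joins an NADPH-dependent thioredoxin reductase and a thioredoxin domain in a single protein, and so takes electrons from NADPH and reduces the peroxiredoxins, which are its best known substrates. A second route, from photosystem I through ferredoxin and ferredoxin-thioredoxin reductase, serves the thioredoxins of the chloroplast, which switch on enzymes of the Calvin-Benson cycle and other pathways in the light. Plants that lack NTRC alone are known for pale leaves and slow growth, and lower levels of 2-Cys peroxiredoxins are known to relieve much of that defect. The comparison asks what the loss of NTRC adds to leaf transcript levels when its main substrates are already missing.

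NTRC (AT2G41680) lies on chromosome 2 from 17376155 to 17379059 on the minus strand in TAIR10.1, with 10 exons and a coding sequence of 529 codons. The stretches shown here are those that encode its 2 Cys-x-x-Cys motifs, the redox-active pairs of the protein whose gene is mutated in the triple mutant. The first, in exon 4 (codons 211 to 226), belongs to the reductase domain, and the second, in exon 8 (codons 448 to 463), to the thioredoxin domain. Each is the coding strand of the RefSeq reference read 5′ to 3′, at chr2:17378070-17378117 and chr2:17376725-17376772. Capitals mark the cysteine codons, numbers 217 and 220 in the first stretch and 454 and 457 in the second.
Reductase domain motif: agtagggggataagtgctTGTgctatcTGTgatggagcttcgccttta
Thioredoxin domain motif: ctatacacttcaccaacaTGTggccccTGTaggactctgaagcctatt

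NTRC transcript abundance was 15.0, 18.3 and 14.7 in the ntrc-2cpab samples, 60.9, 64.7 and 68.1 in the 2cpab samples and 74.5, 80.2 and 76.1 in the wild type. Every ntrc-2cpab sample thus lay far below every other sample, and each sample carried the NTRC level its label calls for. On the log2(abundance + 1) scale used for all differences here, NTRC fell by 1.95 in ntrc-2cpab relative to 2cpab (95% interval -2.16 to -1.74, limma with Benjamini-Hochberg adjusted p = 5.43e-05). The mean in ntrc-2cpab was 16.0 ± 2.01 against 64.6 ± 3.62 in 2cpab (SD, n = 3 each). Transcript from the locus was therefore still present at 24.8% of the 2cpab level. The values do not show which stretch of the transcript it covers. An exact two-sided permutation test over the 6 samples gave p = 0.1, the smallest value that 3 samples against 3 allow.

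The peroxiredoxin genes were low in both mutants. 2CPA (AT3G11630) stood at 3.43, 4.04 and 3.84 in ntrc-2cpab, 4.46, 4.85 and 3.72 in 2cpab and 259, 325 and 310 in the wild type. The mutants overlapped, with a difference of -0.16 (95% interval -0.41 to 0.09). 2CPB (AT5G06290) stood at 9.24, 10.8 and 8.88 in ntrc-2cpab, 9.34, 9.35 and 10.6 in 2cpab and 53.0, 63.4 and 59.4 in the wild type. Its difference between the mutants was -0.02 (95% interval -0.24 to 0.20). The loss of NTRC thus came without a difference past the test at either peroxiredoxin gene.

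**Figure D1:**
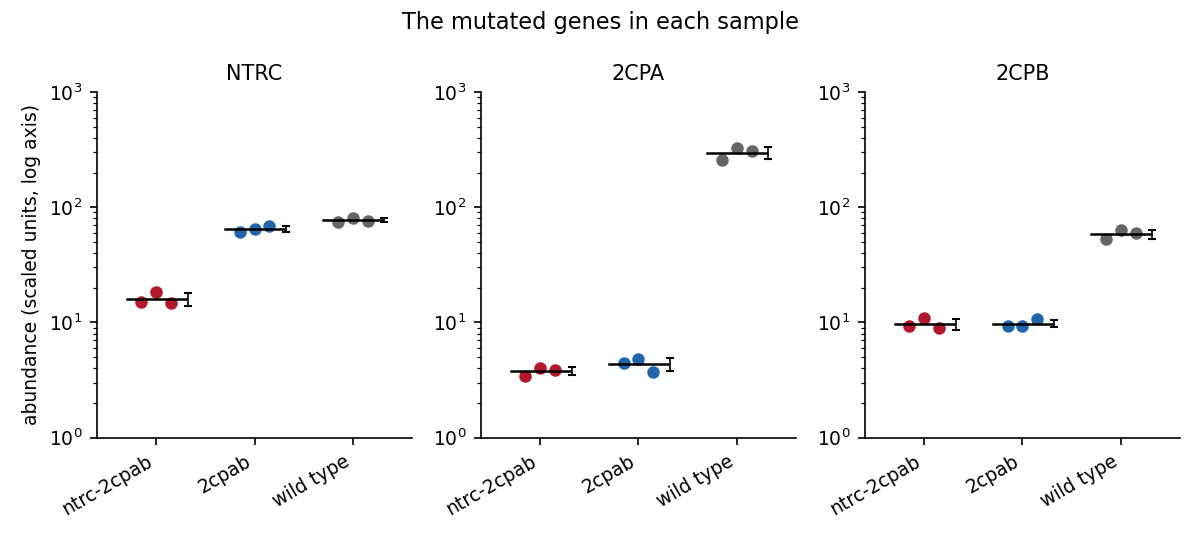
Abundance of NTRC, 2CPA and 2CPB in each sample (points; log axis, scaled units of the deposited table) by genotype, with the mean as a line and the SD as a bar (n = 3). NTRC lies between 14.7 and 18.3 in ntrc-2cpab and between 60.9 and 80.2 elsewhere, while 2CPA and 2CPB are low in both mutants.

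The genes next to NTRC did not share its fall. AT2G41670, which runs towards NTRC and overlaps its last 84 bases, had 2.68, 2.44 and 2.45 in ntrc-2cpab and 2.09, 3.13 and 3.05 in 2cpab. ABCA1, an ABC transporter gene on the upstream side, had 3.85, 3.85 and 5.12 in ntrc-2cpab and 3.96, 3.49 and 3.92 in 2cpab. Values of the mutants overlapped at each of them. The nearer upstream neighbour HSFB3 was listed at 0 in all 6 samples, and MIZ1, further downstream, did not exceed 0.371 and was not tested.

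NTRC was the only locus called. Of 16310 loci, 1 was lower in ntrc-2cpab and 0 were higher (limma with Benjamini-Hochberg adjustment, adjusted p under 0.05; 0.00613% of the loci tested). At an unadjusted p under 0.05 there were 699 loci, or 4.29%, of which 349 were higher and 350 lower. The next smallest adjusted p was 0.172. All 3 ntrc-2cpab samples lay outside the range of the 2cpab samples at 1607 loci, or 9.85% of those tested, with 878 loci (5.38%) higher and 729 (4.47%) lower. The differences were small as well: their 5th and 95th percentiles were -0.23 and 0.23, 98.8% of loci differed by less than 0.5 and 24 loci by at least 1.

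The intervals give the range of differences at each locus that the fit to all 9 samples allows, without adjustment for the number of loci. They do not give the size of change that the adjusted test could have missed. TUB1, for example, had an interval of -1.61 to -0.75 and was not called. The 95% interval lay inside -1 to 1 (2-fold in abundance + 1) at 15904 loci or 97.5%. It lay inside -0.5 to 0.5 at 13375 loci, or 82.0%, and the median width to either side was 0.24. Among the 5421 loci with a mean of at least 10, these shares were 97.5% and 84.0%. Where the interval did not lie inside -1 to 1, as at some of the genes named below, it reached or lay beyond a change of 2-fold.

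**Figure D2:**
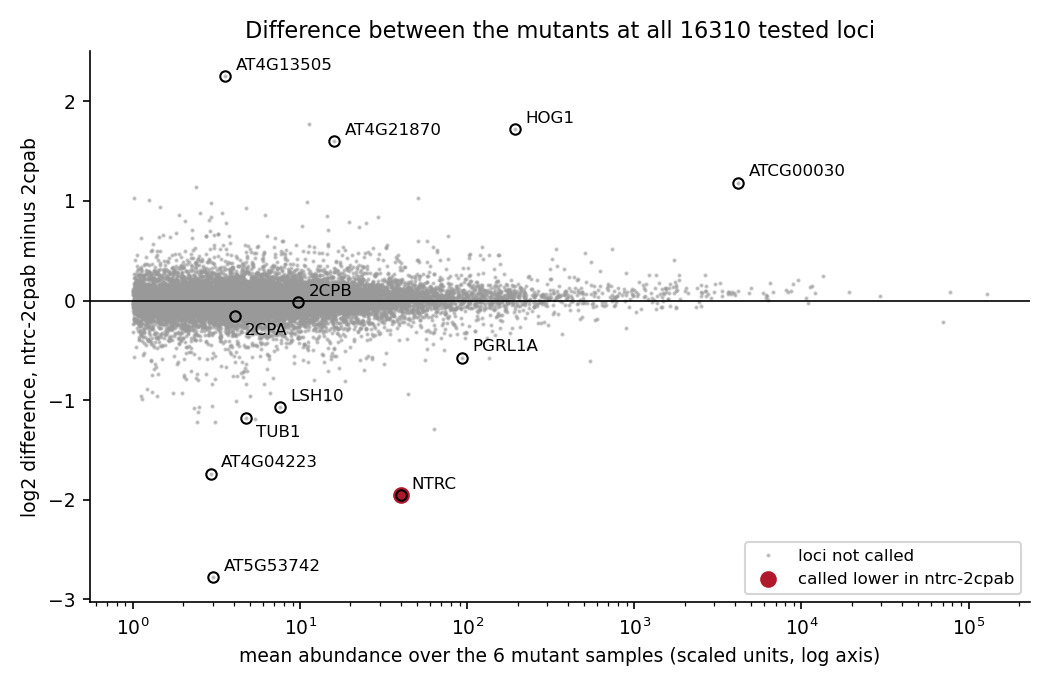
Log2 difference between ntrc-2cpab and 2cpab (vertical) against mean abundance over the 6 mutant samples (horizontal, log axis) for the 16310 loci tested; the filled point is the called locus and open circles mark named loci. NTRC stands at -1.95 with nearly all other loci within 0.5 of 0, and the points at high abundance lie mostly just above 0.

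The samples of the mutants were about as unlike within a genotype as between genotypes. Pearson's r over loci was 0.984 to 0.987 within ntrc-2cpab, 0.987 to 0.990 within 2cpab and 0.980 to 0.994 between them, as a description of the profiles. The first principal component of the 6 samples, with 34.5% of the variance, put ntrc-2cpab replicates 1, 2 and 3 at 7.69, -6.68 and -22.9 and 2cpab replicates 1, 2 and 3 at 17.5, 8.97 and -4.64. No component separated the genotypes. In 22 of the 29 gene lists described below, 2cpab replicate 3 lay within the range of the ntrc-2cpab samples, against 11 lists for replicate 1 and 12 for replicate 2. Without 2cpab replicate 3 the number of loci called was again 1.

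Several loci stood closest to the threshold after NTRC without passing it, and most of them were lower in ntrc-2cpab. The long noncoding RNA AT3G29644 had 1.19, 0.714 and 0.758 in ntrc-2cpab, 2.81, 2.79 and 2.15 in 2cpab and 2.36, 2.57 and 2.65 in the wild type. Its ntrc-2cpab samples were apart from all others (difference -0.93, limma adjusted p = 0.172). The pseudogene AT5G35935 had 1.77, 2.01 and 1.32 in ntrc-2cpab, 0.185, 0.328 and 0.444 in 2cpab and 2.42, 1.65 and 2.08 in the wild type. Here 2cpab was the low genotype and ntrc-2cpab lay near the wild type (difference 1.03, limma adjusted p = 0.172). The noncoding RNA AT4G04223 had 0.318, 1.41 and 0.667 in ntrc-2cpab, 4.90, 3.15 and 7.04 in 2cpab and 12.3, 9.38 and 9.36 in the wild type. The 3 genotypes formed steps without overlap at this locus (ntrc-2cpab minus 2cpab -1.74, limma adjusted p = 0.330). At each of these 3 loci 1 mutant averaged under the limit of 1, so the locus was tested only through the other mutant. Those means were 0.887 and 0.797 in ntrc-2cpab for AT3G29644 and AT4G04223, and 0.319 in 2cpab for AT5G35935. The mean of AT5G35935 over the 6 samples was 1.008, just above the limit.

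Among protein-coding genes in that range, TUB1 (AT1G75780), a beta-tubulin of the microtubule cytoskeleton, had 2.34, 2.80 and 2.32 in ntrc-2cpab, 8.38, 7.24 and 5.34 in 2cpab and 7.59, 4.46 and 4.49 in the wild type. All ntrc-2cpab samples were below all others (difference -1.18, 95% interval -1.61 to -0.75, limma adjusted p = 0.459). LSH10 (AT2G42610), a nuclear protein gene of the LIGHT-DEPENDENT SHORT HYPOCOTYLS family, had 4.25, 5.65 and 3.71 in ntrc-2cpab, 10.6, 12.2 and 8.85 in 2cpab and 10.9, 6.77 and 8.41 in the wild type (difference -1.07, limma adjusted p = 0.507). It lies within 500 kb of NTRC, where 33 of 180 tested loci, or 18.3%, did not overlap between the mutants (9.85% over all loci). Its relative LSH4 had 1.11, 1.57 and 0.695 in ntrc-2cpab and 5.49, 3.51 and 2.202 in 2cpab (difference -1.12, limma adjusted p = 0.992). The mutants did not overlap at either gene. XTH8, of the enzymes that remodel xyloglucan in the cell wall, had 11.2, 11.6 and 9.62 in ntrc-2cpab and 18.6, 17.8 and 14.8 in 2cpab (difference -0.61). Its wild-type samples, at 13.9, 9.81 and 13.8, overlapped ntrc-2cpab and all lay below 2cpab. CLE41, which encodes a peptide signal of the vascular cambium, was lower by less but with little spread, at 8.32, 8.53 and 7.95 in ntrc-2cpab and 10.8, 11.5 and 10.8 in 2cpab (difference -0.38, limma adjusted p = 0.775). At LSH4 and CLE41 every wild-type sample lay above the ntrc-2cpab samples. LSH4, XTH8 and CLE41 were picked after their values were seen.

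PGRL1A (AT4G22890) also came up among the smallest unadjusted p-values. Together with PGR5 the PGRL1 proteins carry cyclic electron flow around photosystem I. PGRL1A had 75.2, 78.4 and 71.0 in ntrc-2cpab, 103, 119 and 113 in 2cpab and 138, 98.1 and 98.9 in the wild type. The ntrc-2cpab samples were below the other 6 (difference -0.57, 95% interval -0.86 to -0.28), and the gene did not pass the test (limma adjusted p = 0.992). The second copy, PGRL1B, had 8.26, 8.06 and 10.2 in ntrc-2cpab and 6.99, 8.29 and 10.3 in 2cpab. PGR5 had 103, 109 and 96.0 in ntrc-2cpab and 107, 104 and 113 in 2cpab, so neither partner stood apart between the mutants. PGRL1A and its partners were chosen after their values were seen.

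**Figure D3:**
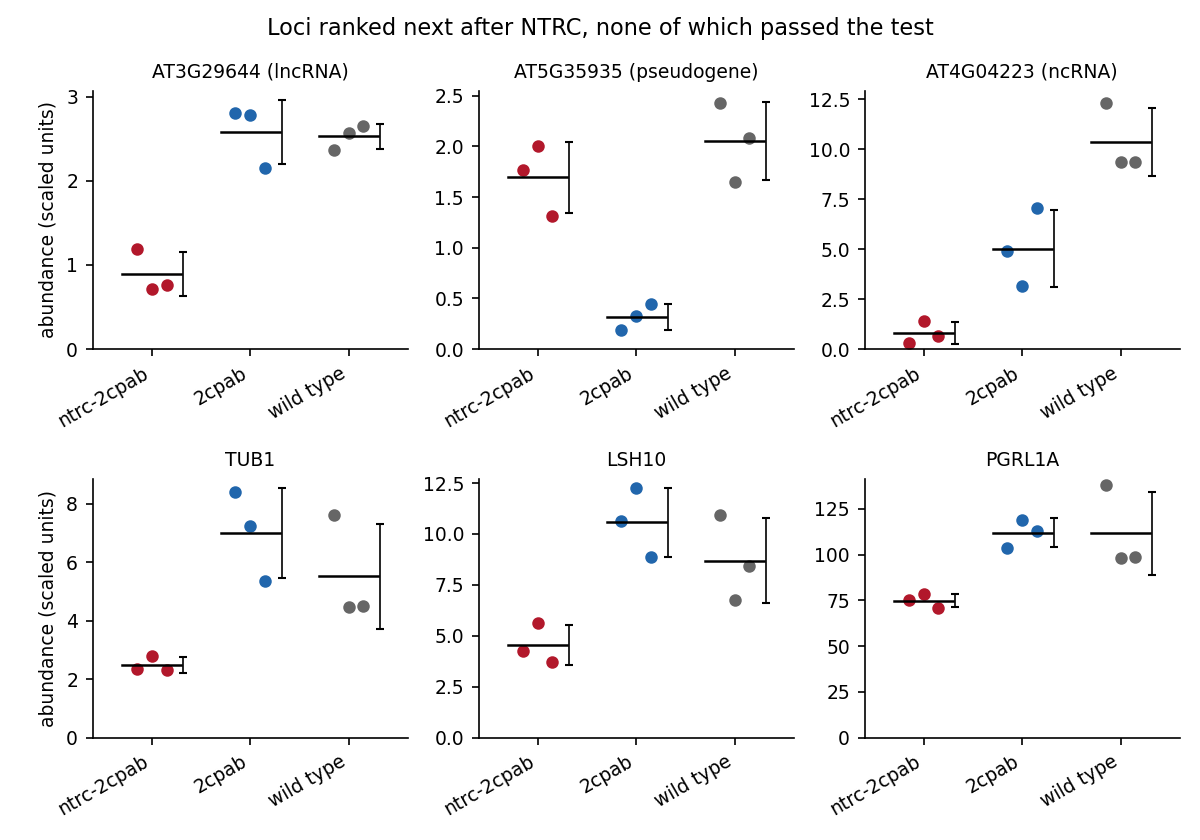
Abundance in each sample (points, scaled units, axes from 0) of loci ranked after NTRC, by genotype, with the mean as a line and the SD as a bar (n = 3). The ntrc-2cpab samples are below both other genotypes at AT3G29644, AT4G04223, TUB1, LSH10 and PGRL1A, and 2cpab is the low genotype at AT5G35935.

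The largest differences in each direction were then taken from loci without overlap that averaged at least 5 in at least 1 of the mutants. Below 0, the largest difference was at AT5G53742, annotated as an egg cell-secreted-like protein, ahead of NTRC. It had 0.0056, 0.0043 and 0.0074 in ntrc-2cpab, 5.21, 7.91 and 4.97 in 2cpab, and 0.0294, 0.0301 and 4.05 in the wild type (difference -2.78, limma adjusted p = 0.775). One wild-type sample thus stood with 2cpab and the others with ntrc-2cpab. The locus passed the abundance limit through its 2cpab values alone. The locus was called in 3 of the 20 alternatives: with only the 6 mutant samples in the fit, with the replicate number as a block over those 6, and without wild type replicate 3 (limma adjusted p = 0.00161, 0.0140 and 0.000456). Its call thus turned on which wild-type samples entered the fit. The locus lies inside AT5G53740 on the same strand, and that gene overlapped between the mutants, with 63.2, 42.0 and 39.1 in ntrc-2cpab and 55.9, 51.0 and 35.6 in 2cpab. How reads shared by these loci were assigned is not given, and its part in the values was not tested. PDF1.3, a plant defensin gene with close relatives, had 2.303, 4.53 and 1.75 in ntrc-2cpab, 6.48, 5.12 and 12.0 in 2cpab and 1.90, 1.18 and 4.21 in the wild type. AT1G31710, a copper amine oxidase gene, had 1.82, 2.66 and 2.56 in ntrc-2cpab, 7.60, 6.30 and 3.80 in 2cpab and 8.70, 2.88 and 6.07 in the wild type. JAL23, a jacalin lectin gene, had 1.85, 6.12 and 7.43 in ntrc-2cpab, 8.16, 8.39 and 9.11 in 2cpab and 23.8, 4.54 and 13.3 in the wild type. The gaps between the mutants were narrow at these 3 genes next to the spread within them.

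Above 0, the loci with the largest differences varied widely within at least 1 genotype. HOG1 (AT4G13940), the S-adenosylhomocysteine hydrolase that keeps methylation reactions running, had 597, 177 and 158 in ntrc-2cpab, 84.0, 76.9 and 70.2 in 2cpab and 444, 57.3 and 512 in the wild type. The wild type held 2 high values and 1 below every mutant sample (difference 1.72, 95% interval -0.02 to 3.46), and its paralog SAHH2 had 230, 211 and 171 in ntrc-2cpab and 196, 232 and 203 in 2cpab. AT4G21870, an HSP20-like chaperone gene, had 21.3, 14.7 and 37.3 in ntrc-2cpab, 3.20, 9.54 and 9.79 in 2cpab and 2.41, 2.29 and 7.11 in the wild type. Every ntrc-2cpab sample was above all others (difference 1.60, 95% interval 0.54 to 2.67, limma adjusted p = 0.992). RAP2.12 (AT1G53910), a transcription factor of the hypoxia response, had 8.81, 17.2 and 19.4 in ntrc-2cpab, 5.81, 6.76 and 7.74 in 2cpab and 9.99, 6.79 and 12.0 in the wild type (difference 0.99, limma adjusted p = 0.992). AT5G61590, an ethylene response factor gene, had 45.8, 27.1 and 40.1 in ntrc-2cpab and 16.0, 23.0 and 22.2 in 2cpab (difference 0.84). Neither transcription factor gene passed the test.

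The other loci of that group behaved unevenly. The noncoding RNA AT4G13505 had 6.48, 5.53 and 7.09 in ntrc-2cpab, 0.115, 2.05 and 0.0636 in 2cpab and 0.286, 6.57 and 0.00769 in the wild type. Its mean in 2cpab was 0.743, so it passed the abundance limit through its ntrc-2cpab values. It overlaps the ammonium transporter gene AT4G13510 on the other strand, and whether the counting used strand is not given. The plastid-encoded ATCG00030 had 8195, 7552 and 2371 in ntrc-2cpab, 2279, 2349 and 2340 in 2cpab and 2039, 2069 and 7518 in the wild type. High and low values thus occurred together in ntrc-2cpab, as they did in the wild type. AT4G05070, of a wound-responsive family, had 19.7, 12.7 and 17.2 in ntrc-2cpab and 6.54, 0.365 and 11.5 in 2cpab, and AT5G52552 had 5.32, 6.06 and 7.13 in ntrc-2cpab and 4.13, 4.91 and 0.718 in 2cpab.

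Gene lists for the chloroplast redox network, photosynthesis, stress, metabolism, growth and cell types were then read against these all-locus figures. They held 346 measured nuclear genes of 403 listed. Of these genes 0 were called, 9 or 2.6% had an unadjusted p under 0.05 (4.29% over all loci), and 27 or 7.8% did not overlap between the mutants (9.85% over all loci). The 95% interval lay inside -1 to 1 for 303 of the 346, a smaller share than the 97.5% over all loci. With the plastid- and mitochondria-encoded loci there were 29 lists, and for 26 of them leaving out 1 mutant sample turned the sign of the list's median difference or moved it by over 1.5 times. The 3 exceptions were the photosystem list, the antenna list and the plastid-encoded loci.

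Other peroxiredoxins had levels in ntrc-2cpab close to those in 2cpab. PRXQ, a chloroplast peroxiredoxin that thioredoxins reduce, had 128, 138 and 139 in ntrc-2cpab and 126, 141 and 153 in 2cpab (difference -0.05, 95% interval -0.28 to 0.19). PRXIIE, also in the chloroplast, had 96.9, 107 and 103 in ntrc-2cpab and 97.9, 105 and 103 in 2cpab (difference -0.001, 95% interval -0.18 to 0.18). SRX, the sulfiredoxin that repairs overoxidized 2-Cys peroxiredoxins, had 9.58, 9.36 and 9.99 in ntrc-2cpab and 9.11, 7.86 and 10.3 in 2cpab. All 5 measured members of that list of 7, cytosolic PRXIIB and mitochondrial PRXIIF included, had an interval inside -0.5 to 0.5.

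Of the plastid thioredoxins and their reductases, 22 of 24 were measured, 16 above and 6 below 0, with a median of 0.08 beside 0.0081 over all loci (0.02 without 2cpab replicate 1). FTRB, the catalytic subunit of ferredoxin-thioredoxin reductase, had 49.99, 45.9 and 50.9 in ntrc-2cpab and 41.8, 45.4 and 51.0 in 2cpab (difference 0.09, 95% interval -0.14 to 0.32). TRXF1, which activates Calvin-Benson enzymes, had 105, 123 and 103 in ntrc-2cpab and 107, 105 and 124 in 2cpab (difference -0.03, 95% interval -0.26 to 0.20). The m-type TRXM1, TRXM2 and TRXM4, the x-type TRXX and the y-type TRXY2 all overlapped between the mutants. So did NTRA and NTRB, the extraplastidic reductases nearest to NTRC in kind, at -0.04 and -0.05. The widest difference of the list was at WCRKC1, an atypical plastid thioredoxin, which had 1.90, 2.12 and 2.68 in ntrc-2cpab, 1.33, 1.30 and 1.34 in 2cpab and 0.876, 1.96 and 1.83 in the wild type. It did not pass over all loci (difference 0.47, limma adjusted p = 0.992). TRXM3 and CDSP32, a drought-induced thioredoxin of the stroma, also did not overlap, at 0.26 and 0.14. Members without overlap made up 13.6% of the list on the higher side (5.38% over all loci) and 0% on the lower side (4.47%).

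The ascorbate-glutathione cycle, superoxide dismutases and catalases, which remove superoxide and hydrogen peroxide by other routes, had 20 of 21 genes measured, 11 above and 9 below 0, with a median of 0.0091. GR2, the organellar glutathione reductase, had 34.4, 34.5 and 30.7 in ntrc-2cpab and 37.4, 35.0 and 38.8 in 2cpab, and was the only member without overlap (difference -0.15, 95% interval -0.34 to 0.03). This was 5% of the list, near the 4.47% of all loci that were lower without overlap. Thylakoid ascorbate peroxidase TAPX had 46.0, 46.9 and 49.7 in ntrc-2cpab and 49.6, 42.9 and 48.2 in 2cpab. The catalase gene CAT2 had 259, 223 and 173 in ntrc-2cpab and 245, 219 and 242 in 2cpab. The direction of this list changed with the scaling, to -0.04 when the factors by which the authors had scaled the samples were undone. Oxidative stress markers gave 6 above and 4 below 0 of 10 measured, with a median of 0.04 that turned to -0.11 without ntrc-2cpab replicate 3. The zinc finger gene ZAT12 had 1.10, 1.501 and 1.32 in ntrc-2cpab and 1.89, 1.88 and 1.24 in 2cpab, and the alternative oxidase gene AOX1A 9.10, 10.98 and 12.2 in ntrc-2cpab and 7.91, 8.73 and 11.6 in 2cpab.

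Nuclear genes of photosynthesis lay slightly above 0 together, and none passed the test. Of 31 genes in the list of photosystem cores and electron transport, 30 were above 0, with a median of 0.10, and of 18 antenna genes 18 were above 0, with a median of 0.12. LHCA1, an antenna protein of photosystem I, had 2060, 2082 and 1899 in ntrc-2cpab, 1826, 1506 and 1734 in 2cpab and 1602, 1956 and 2414 in the wild type. FNR2, a ferredoxin-NADP+ reductase, had 164, 191 and 191 in ntrc-2cpab and 135, 143 and 174 in 2cpab. PSBO1, of the oxygen-evolving complex, had 1890, 1828 and 1877 in ntrc-2cpab and 1701, 1664 and 1849 in 2cpab. These genes vary together from sample to sample: the median deviation of the photosystem list from the 6-sample mean was 0.05, 0.03 and 0.09 in ntrc-2cpab and -0.12, -0.10 and 0.06 in 2cpab, so 2cpab replicate 3 lay with ntrc-2cpab. Both medians stayed above 0 under each scaling and without each mutant sample, between 0.05 and 0.15 for the photosystem list and between 0.04 and 0.16 for the antenna list.

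High abundance went along with a difference above 0 over the table as a whole. Of 112 loci with a mean of at least 1000, 96 or 85.7% were above 0, with a median of 0.08, and of 10889 loci with a mean from 1 to 10, 5462 or 50.2% were above 0, with a median of 0.0005. Among nuclear loci alone, 36 of 46 with a mean of at least 1000 were above 0. The part of this relation to level in the values of the photosynthesis lists was not tested.

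The 133 plastid-encoded loci had 109 above and 24 below 0, a median of 0.08 and 23 loci (17.3%) higher without overlap (5.38% over all loci) against 1 (0.75%) lower (4.47%). Their median deviation was 0.03, 0.05 and 0.05 in ntrc-2cpab and -0.04, -0.08 and 0.01 in 2cpab, which did not overlap, and 0 passed the test (limma; 6 or 4.51% at an unadjusted p under 0.05, beside 4.29% over all loci). With quantile normalization the median was -0.0004. Plastid-encoded loci made up 50.5, 50.7 and 51.3% of summed abundance in ntrc-2cpab and 49.8, 46.8 and 50.9% in 2cpab. In poly(A) RNA their level also follows the RNA selection, and several have near-identical copies. The 126 measured mitochondria-encoded loci had 52 above and 74 below 0, with a median of -0.03.

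Downstream plastid pathways showed small differences in either direction. Tetrapyrrole synthesis, which makes chlorophyll and which NTRC is known to regulate at the protein level, had 19 of 25 genes above 0, with a median of 0.04. PORB, the light-dependent protochlorophyllide reductase, had 110, 120 and 216 in ntrc-2cpab and 90.5, 88.6 and 114 in 2cpab (difference 0.54, 95% interval -0.05 to 1.13). FLU, a negative regulator of the pathway, had 33.3, 34.0 and 33.9 in ntrc-2cpab and 14.1, 31.8 and 31.2 in 2cpab, so its difference of 0.47 rested on 2cpab replicate 1. Starch metabolism had 21 of 31 genes above 0, with a median of 0.07 that was 0.01 without 2cpab replicate 2. SEX1, the glucan, water dikinase of starch breakdown, had 15.3, 20.2 and 24.3 in ntrc-2cpab and 13.4, 14.8 and 20.7 in 2cpab, and GBSS1, the amylose synthase, had 48.1, 74.0 and 48.6 in ntrc-2cpab and 73.0, 57.0 and 80.7 in 2cpab. Neither gene separated the mutants. The Calvin-Benson cycle had 13 of 20 measured genes above 0, with a median of 0.03. CP12-1, which binds cycle enzymes in the dark, had 245, 254 and 278 in ntrc-2cpab and 192, 247 and 232 in 2cpab, and the aldolase FBA1 had 960, 895 and 605 in ntrc-2cpab and 952, 951 and 1014 in 2cpab. The tetrapyrrole and Calvin-Benson medians turned to -0.0041 and -0.02 with the authors' factors undone.

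**Figure D4:**
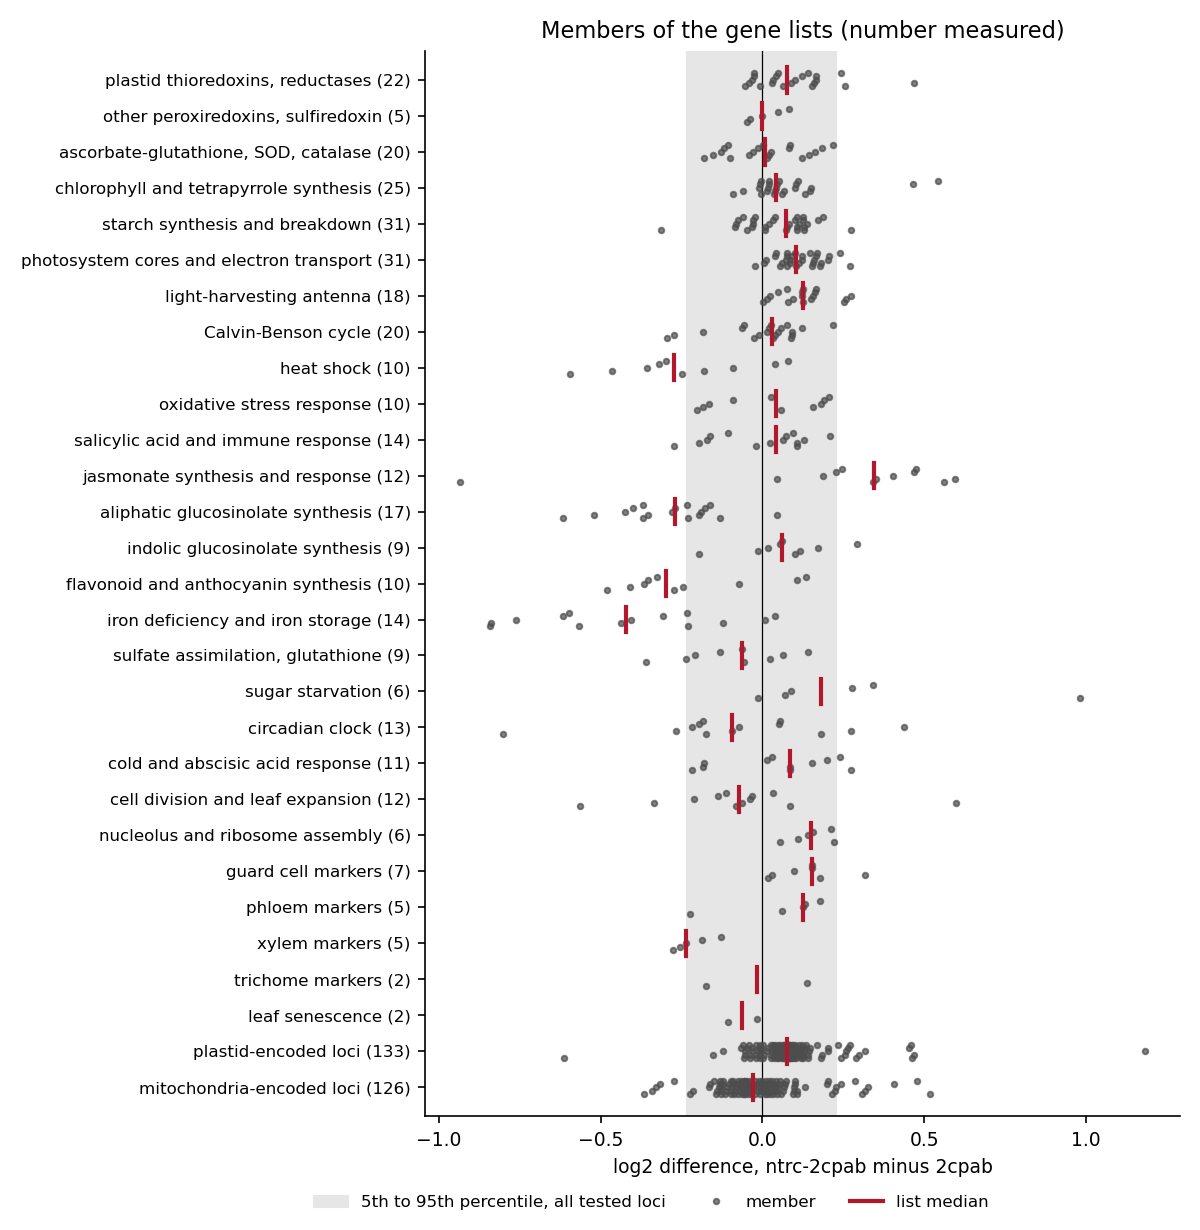
Log2 difference between ntrc-2cpab and 2cpab for each measured member of the gene lists (points), with the list median (vertical bar) and the 5th to 95th percentile over all loci tested (shading, -0.23 to 0.23). Photosystem and antenna genes sit narrowly above 0, and the heat shock, aliphatic glucosinolate, flavonoid and iron lists spread mostly below 0.

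Heat shock genes, chaperones that bind unfolded proteins and their regulators, tended to lower values in ntrc-2cpab without passing the test. Of 14 genes 10 were measured, 8 below and 2 above 0, with a median of -0.27. HSP70-4, a cytosolic HSP70, had 58.6, 48.1 and 26.0 in ntrc-2cpab, 84.6, 74.9 and 40.9 in 2cpab and 8.90, 5.81 and 5.66 in the wild type. Both mutants were above the wild type in every sample and overlapped each other (difference -0.60, 95% interval -1.35 to 0.16). HSP101, a disaggregase, had 3.98, 3.63 and 3.25 in ntrc-2cpab and 7.46, 6.52 and 3.04 in 2cpab. HSP90.1 had 6.53, 6.73 and 6.54 in ntrc-2cpab and 10.8, 9.73 and 6.25 in 2cpab. At both genes 2cpab replicates 1 and 2 were high and replicate 3 was the lowest of the 6 samples. The list's median deviation was -0.15, -0.07 and -0.23 in ntrc-2cpab and 0.39, 0.27 and -0.26 in 2cpab, and the median difference was -0.47 without 2cpab replicate 3, -0.15 without 2cpab replicate 1 and -0.18 without ntrc-2cpab replicate 3.

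Defence-related lists differed more among replicates than between the mutants. Jasmonate synthesis and response had 11 of 12 genes above 0, with a median of 0.35. AOC2, an allene oxide cyclase of jasmonate synthesis with near-identical copies, had 40.8, 60.5 and 112 in ntrc-2cpab and 32.6, 45.8 and 52.5 in 2cpab, and AOS, the step before it, had 37.8, 49.8 and 86.7 in ntrc-2cpab and 35.5, 42.2 and 46.5 in 2cpab. The list rested on 1 sample: its deviations were -0.43, 0.16 and 0.87 in ntrc-2cpab and -0.38, -0.12 and -0.003 in 2cpab, and its median was -0.04 without ntrc-2cpab replicate 3 and 0.64 without ntrc-2cpab replicate 1. The salicylic acid and immune list had 8 of 14 measured genes above 0, with a median of 0.04 that turned to -0.15 without the same sample. PR1, a pathogenesis-related gene, had 1.61, 40.6 and 49.6 in ntrc-2cpab and 12.4, 8.67 and 26.5 in 2cpab, among the widest ranges within a genotype in the table. PBS3, of salicylic acid synthesis, had 1.91, 3.53 and 3.16 in ntrc-2cpab and 3.80, 2.32 and 4.18 in 2cpab.

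The medians of the aliphatic glucosinolate, flavonoid and iron lists lay below 0, that of the indolic glucosinolate list above 0, and again no member passed. Aliphatic glucosinolate synthesis had 16 of 17 measured genes below 0, with a median of -0.27 that was -0.11, -0.48 and -0.17 without ntrc-2cpab replicate 1, 2 or 3. FMOGS-OX1, which modifies the side chain, had 2.38, 4.90 and 2.82 in ntrc-2cpab, 7.16, 5.57 and 4.11 in 2cpab and 10.9, 3.71 and 8.71 in the wild type. Replicate 2 was the highest ntrc-2cpab sample at this gene and in the list as a whole, with deviations of -0.42, 0.27 and -0.31 in ntrc-2cpab and 0.23, -0.0019 and 0.14 in 2cpab. Indolic glucosinolate genes had 7 of 9 above 0, with a median of 0.06 (-0.10 without ntrc-2cpab replicate 3), and SUR1, which serves both branches, had 27.7, 31.1 and 31.0 in ntrc-2cpab and 39.6, 32.4 and 31.8 in 2cpab. Flavonoid and anthocyanin synthesis had 8 of 10 measured genes below 0, with a median of -0.30 that was -0.06 without ntrc-2cpab replicate 3. CHI, chalcone isomerase, had 5.70, 4.84 and 3.68 in ntrc-2cpab and 6.41, 6.07 and 5.86 in 2cpab (difference -0.33, limma adjusted p = 0.992), and UGT75C1, an anthocyanin glucosyltransferase, had 1.32, 1.61 and 1.14 in ntrc-2cpab and 2.24, 2.34 and 1.497 in 2cpab.

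Iron deficiency and storage genes had 12 of 14 measured members below 0, with a median of -0.42. Leaving out ntrc-2cpab replicate 2 brought it to -0.24, above the median of -0.48 that the aliphatic glucosinolate list then had. OPT3, an iron transporter of the phloem, had 54.2, 51.0 and 45.5 in ntrc-2cpab and 67.8, 60.6 and 58.7 in 2cpab, and NAS4, a nicotianamine synthase, had 4.97, 2.41 and 2.63 in ntrc-2cpab and 5.77, 6.36 and 3.81 in 2cpab. The ferritins FER3 and FER4, which store iron, were at 0.04 and 0.0076. Deviations of 0.08, -0.49 and -0.25 in ntrc-2cpab and 0.31, 0.39 and -0.11 in 2cpab overlapped. In sulfate assimilation and glutathione synthesis 6 of 9 measured genes were below 0, with a median of -0.06 (-0.11 to -0.04 with 1 sample left out). LSU2, a gene that responds to sulfur deficiency, had 8.60, 7.79 and 8.50 in ntrc-2cpab and 12.7, 10.2 and 10.14 in 2cpab (difference -0.36, limma adjusted p = 0.992). Of the 27 measured lists of nuclear genes, the sulfate list alone had median deviations without overlap. They were 0.0051, -0.022 and -0.15 in ntrc-2cpab and 0.022, 0.084 and 0.0098 in 2cpab, and the gap between the genotypes was small. Among single loci 9.85% did not overlap, a larger share than 1 of 27 lists.

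**Figure D5:**
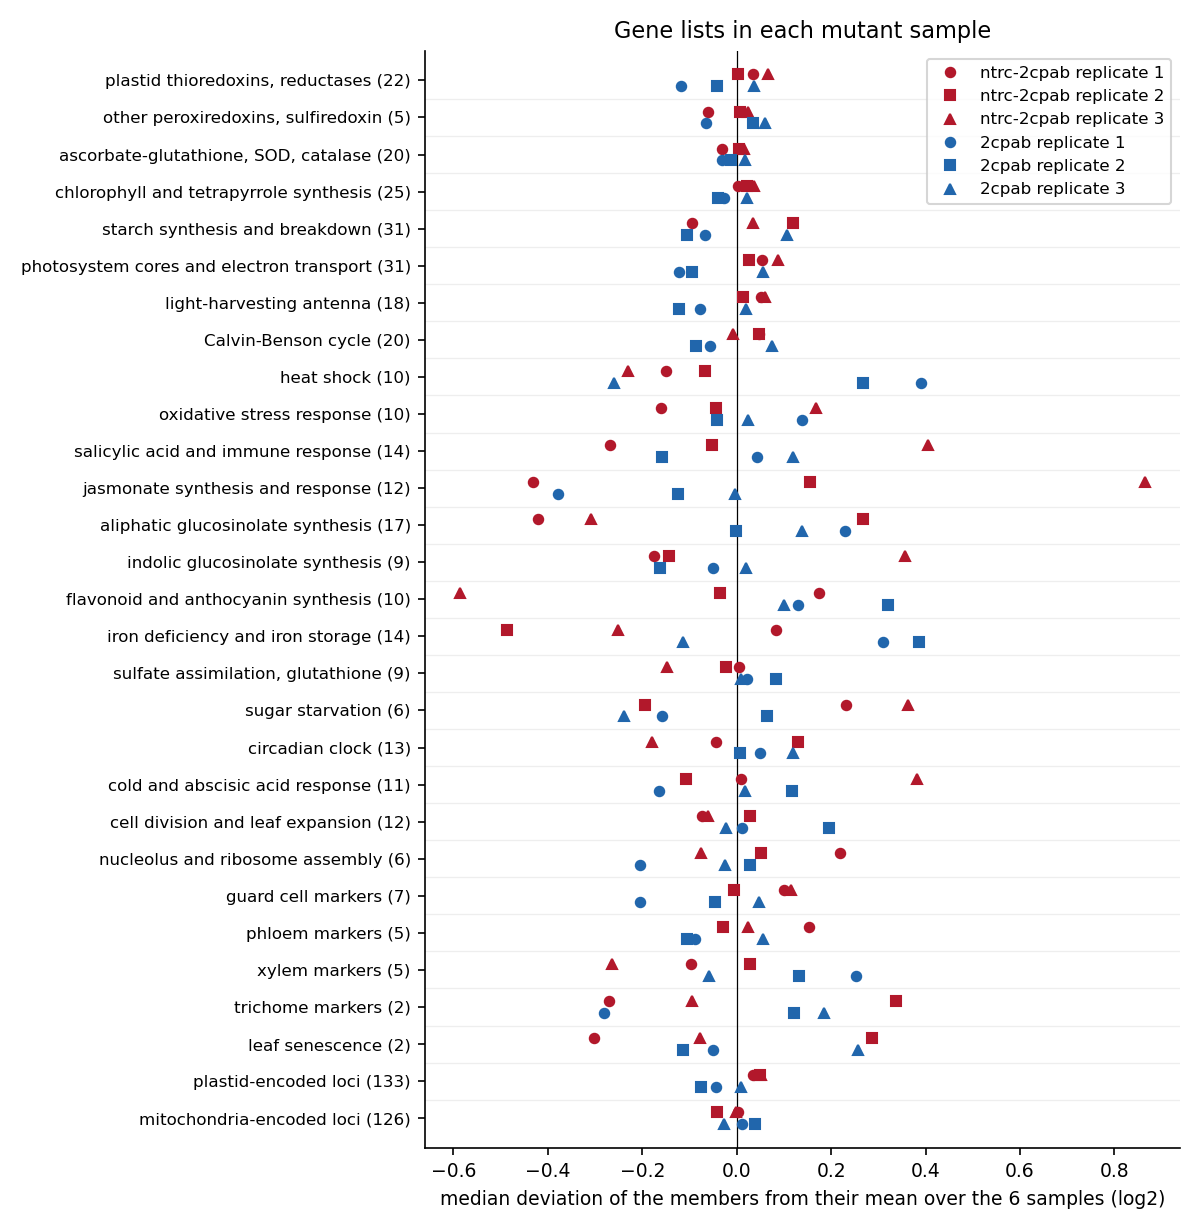
Median deviation of each gene list from its mean over the 6 mutant samples (log2, horizontal), for the 3 ntrc-2cpab samples and the 3 2cpab samples, marked by replicate. The genotypes overlap in nearly all lists, 2cpab replicate 3 often lies among the ntrc-2cpab samples, and ntrc-2cpab replicate 3 stands alone in the jasmonate list at 0.87.

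Of the clock, sugar and growth lists, the members shown were picked mainly for a small p, and none passed the test. The mutants overlapped at LHY, DIN10 and EXPA1 and did not overlap at ELF3 and EXPA11. ELF3, part of the evening complex of the clock, had 1.95, 2.40 and 2.77 in ntrc-2cpab, 1.33, 1.501 and 1.61 in 2cpab and 1.59, 1.86 and 1.34 in the wild type (difference 0.44, 95% interval 0.18 to 0.70, limma adjusted p = 0.992). LHY, a morning repressor of the clock, had 13.0, 7.59 and 5.12 in ntrc-2cpab, 22.8, 14.9 and 9.28 in 2cpab and 24.5, 16.9 and 15.5 in the wild type. The clock list as a whole had 5 of 13 measured genes above 0, with a median of -0.09 (-0.19 to -0.03 with 1 sample left out), and CCA1, the close partner of LHY, had 18.7, 22.4 and 14.7 in ntrc-2cpab and 21.3, 19.8 and 22.4 in 2cpab. DIN10, a raffinose synthase-like gene of the sugar starvation list, had 4.79, 1.59 and 6.78 in ntrc-2cpab and 1.33, 1.90 and 1.24 in 2cpab. High values occurred in 2 of its ntrc-2cpab samples, and 5 of the 6 measured genes of that list were above 0, with a median of 0.18 that was 0.08 without ntrc-2cpab replicate 3. Of the expansins, which loosen cell walls, EXPA1 had 46.0, 64.6 and 71.6 in ntrc-2cpab and 26.4, 42.0 and 53.9 in 2cpab, while EXPA11 had 5.50, 4.56 and 2.25 in ntrc-2cpab and 6.37, 6.77 and 5.62 in 2cpab. The division and expansion list had 3 of 12 genes above 0, with a median of -0.07 (-0.16 without 2cpab replicate 3), and the cold and abscisic acid list 8 of 11 measured genes, with a median of 0.08 (-0.10 without ntrc-2cpab replicate 3). All 6 genes of the nucleolus and of ribosome assembly were above 0, with a median of 0.15 that was 0.04 without ntrc-2cpab replicate 1 and 0.07 without 2cpab replicate 1. NUC-L1, a nucleolin, had 115, 102 and 103 in ntrc-2cpab, 79.5, 102 and 92.9 in 2cpab and 57.1, 61.7 and 70.1 in the wild type, so that the mutants overlapped above the wild type.

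Markers of leaf cell types were used to see whether the pools held like tissue. All 7 guard cell markers were above 0, with a median of 0.15 and summed abundance of 67.9 to 77.5 in ntrc-2cpab and 58.3 to 73.9 in 2cpab. SLAC1, the guard cell anion channel, had 1.77, 1.67 and 1.73 in ntrc-2cpab and 1.38, 1.38 and 1.57 in 2cpab. It was the only guard cell marker without overlap, or 14.3% of that list (5.38% higher over all loci). It was not among the 2 markers with the smallest p. The 5 xylem markers were all below 0, with a median of -0.24 and sums of 22.5 to 27.9 in ntrc-2cpab and 24.8 to 32.6 in 2cpab. Phloem markers had 4 of 5 above 0, with sums of 106 to 120 in ntrc-2cpab and 97.6 to 113 in 2cpab. In pooled leaves, fewer cells of a type and less RNA per cell cannot be told apart. The 9 flower and meristem markers were under the limit, at sums of at most 0.130 in ntrc-2cpab and 0.163 in 2cpab. Of the trichome and senescence markers 2 each were measured, with medians of -0.02 and -0.06, and the senescence marker SAG12 was listed at 0 in every mutant sample. With 1 sample left out the guard cell median ran from 0.09 to 0.19 and the xylem median from -0.32 to -0.13. The part of these markers in the lists above was not tested.

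The widest ranges within a mutant genotype, among loci with a mean of at least 20, were at PR1, AT4G23420 and the plastid-encoded ATCG00590. AT4G23420, annotated as a Rossmann-fold protein gene, had 428, 0.222 and 0.216 in ntrc-2cpab, 0.288, 573 and 0.0828 in 2cpab and 262, 0.248 and 345 in the wild type. Each genotype held both very high and very low values at this locus. ATCG00590 had 360, 877 and 77.4 in ntrc-2cpab and 673, 1166 and 112 in 2cpab.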

How the data were processed

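Poly(A) RNA from column-purified leaf RNA was turned into Illumina libraries, per the labels. The authors deposited log2 values for 33602 loci in 9 samples, which are log2 of abundance + 1 after scaling, as the values themselves show. FastQC, HISAT2, StringTie and the build TAIR10 are named in the submitters' processing notes; their versions, strand use and scaling method are not given there. The 75th percentile was the same in all samples (2.75), and summed abundance ran from 960937 to 1029630. The depth per sample is unknown, so precision is judged from replicates alone, and scaled values hide changes in total RNA. Low values in each sample were whole multiples of 1 step (99.0 to 99.5% to within 0.1 of a step), and the size of the step gave the factor by which the authors had scaled that sample (0.970 to 1.10). Alternatives undid these factors, used quantile normalization or median ratios over nuclear loci, changed the offset or the filter, added a replicate block or left out a sample.

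Columns were matched to samples by name, and groups and replicate numbers came from the labels. Abundance was calculated back as 2 to the power of the value, minus 1. limma 3.58.1 in R 4.3.3 (lmFit, contrasts.fit, eBayes with an intensity trend) was fitted to all 9 samples, with 1 coefficient per genotype, which left 6 residual degrees of freedom. Tests had 2 sides, and their p-values were given a Benjamini-Hochberg correction over 16310 loci, with loci called at an adjusted p under 0.05; rose and fell are used of called loci alone. Differences understate changes at low abundance. In a test on simulated data for ntrc-2cpab against 2cpab (16310 loci), 93% of changes of 1 and 100% of changes of 2 on the log2 scale were recovered, with 3 false calls. There, 100 loci changed by 1 and 100 by 2 at once, with normal noise at the fitted spread of each locus. The adjustment is stricter where fewer loci change, so these shares do not carry over to the deposited values. Among those, 24 loci differed by at least 1 and 1 was called.

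Named are the mutated genes, the neighbours of NTRC and the 3 widest ranges. The 8 largest differences each way among loci without overlap and a mean of at least 5 are named too. Of the 2 members of each list with the smallest p, some are named and others left out. Other genes are named as picked after their values were seen or as further members of a list. The members and lists were chosen with earlier results of these data known. Names and positions are from RefSeq's TAIR10.1 annotation (15997 of the loci tested matched), a build not named by the submitters. Levels of overlapping genes and near-identical copies are uncertain.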

Additional observations from a re-analysis of the deposited data

How the results depend on the processing

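NTRC was called in all 20 alternatives, at -2.05 to -1.90 and limma adjusted p from 3.05e-05 to 0.0140. The count of 1 called locus became 2 with only the 6 mutant samples in the fit (AT5G53742 added) and 5 with no filter on low abundance (28719 loci; AT1G08035, AT2G25260, AT3G50170 and MIR170 added, each with a mean under 1). Over the 9 fits that left out 1 sample it ran from 1 to 2: AT2G42130 was added without ntrc-2cpab replicate 1, GRF1 without ntrc-2cpab replicate 3, and AT5G53742 without wild type replicate 3. The cause was not tested. With a mean of at least 5, 891 of 9248 loci did not overlap, 549 higher and 342 lower. Over all 16310 loci there were 1607 (9.85%), 878 (5.38%) higher and 729 (4.47%) lower. The balance between the directions thus moved with the filter, and the part of the relation to level in this was not tested. With the replicate number as a block the count was 1 over 9 samples and 2 over the 6 mutant samples (AT5G53742 added), and NTRC stayed at -1.95. Same-numbered mutant samples correlated at 0.106, -0.151 and 0.154 in their deviations, so the numbers were not taken to pair them. The numbers of loci with an interval inside -1 to 1 and inside -0.5 to 0.5 were lowest with an offset of 0.1, at 15360 and 11173. The median over all loci shifted to -0.03 with the authors' factors undone, and 4 of 29 list medians changed sign with the scaling and 10 when a sample was left out. Unknown depth leaves counting error at low loci unmeasured.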

Other observations

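Loci within 500 kb of the mutated genes were set apart after their values were seen. Within 500 kb of NTRC, 33 of 180 tested loci, or 18.3%, did not overlap between ntrc-2cpab and 2cpab (16 higher and 17 lower), beside 9.85% over all loci. Within 1000 kb the share was 12.8% of 375 loci. Within 500 kb of 2CPA and of 2CPB, where both mutants are mutated, it was 6.06% of 198 loci and 10.5% of 171 loci. In the NTRC window 16 loci, or 8.89%, had an unadjusted p under 0.05 (4.29% over all loci), and 0 beside NTRC passed the limma test. LSH10, lower in ntrc-2cpab, lies in this window. Neighbouring loci do not count independently, and no test was made of the share.

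Some loci took either a high or a low value within a genotype. At those given here other than GRF1 the wild type held both, and the level did not follow genotype. GRF1, which encodes a 14-3-3 protein, had 94.4, 92.1 and 27.9 in ntrc-2cpab, 30.1, 30.4 and 29.6 in 2cpab and 24.7, 24.8 and 27.0 in the wild type. Its high values were in ntrc-2cpab alone. BZIP53, a transcription factor gene, had 0.000724, 0 and 0.00204 in ntrc-2cpab, 6.76, 0.00143 and 0.00167 in 2cpab and 0.00102, 4.49 and 0.00247 in the wild type. The translation initiation factor gene AT4G20980 had 19.9, 1.10 and 15.1 in ntrc-2cpab, 17.1, 17.2 and 16.3 in 2cpab and 16.4, 14.7 and 1.08 in the wild type. AT4G23420 and ATCG00030 had values of the same kind.

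At AT4G13495 and MIR170, ntrc-2cpab lay nearer to the wild type than 2cpab did. The noncoding locus AT4G13495 had 162, 149 and 160 in ntrc-2cpab, 104, 108 and 131 in 2cpab and 190, 226 and 177 in the wild type (ntrc-2cpab minus 2cpab 0.46, not called). MIR170, a microRNA locus under the abundance limit, had 1.30, 1.39 and 1.13 in ntrc-2cpab, 0.0910, 0.258 and 0.317 in 2cpab and 1.45, 1.35 and 1.22 in the wild type. A further pair of loci was low in both mutants. ARP9, an actin-related protein gene, had 3.20, 2.84 and 2.93 in ntrc-2cpab, 3.18, 3.01 and 3.33 in 2cpab and 7.73, 7.83 and 7.70 in the wild type. Its difference between the mutants did not pass the test. MRD1, where the mutants overlapped, had 0.0283, 1.52 and 0.0721 in ntrc-2cpab, 0, 0.148 and 0.0571 in 2cpab and 9.83, 8.99 and 9.41 in the wild type.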
